A study of Homo sapiens with 2 samples.

Results

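The genes described here are the core of the pathway that makes long-chain fatty acids from acetyl-CoA, with SREBF1, the transcription factor that drives it, and SCD, its best-known desaturase. They were chosen by gene symbol, as all probes of SREBF1, SCD, FASN, ACACA, ACLY, ELOVL5, ELOVL6, FADS1, FADS2 and ACSS2, with earlier results of these same arrays known, so their values are a description. This gave 10 genes with 19 probes, out of 20046 genes with a named probe and 47323 probes in all. The samples were 2 cultures of A4573, an established line of Ewing sarcoma, a bone and soft-tissue cancer whose hallmark is an EWSR1-ETS fusion protein. One was the wild-type parental line and the other a radiation-adapted derivative labelled 4 Gy. The labels give no irradiation schedule, no interval between the last dose and harvest, and no word on whether the adapted culture is 1 clone or a pool. Each culture gave total RNA for 1 Illumina bead array, so no difference below has a replicate check or a test.

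Fatty acid synthesis starts in the cytosol, where acetyl-CoA is made from citrate by ACLY or from acetate by ACSS2. ACACA carboxylates it to malonyl-CoA, and FASN builds palmitate from the product. ELOVL enzymes then lengthen the chain, and SCD and the FADS enzymes insert double bonds, SCD in saturated chains and FADS1 and FADS2 in polyunsaturated ones. The precursor of the SREBF1 protein sits in the endoplasmic reticulum membrane with the escort protein SCAP, held there by INSIG proteins when sterols are plentiful. After transport to the Golgi it is cut by the proteases MBTPS1 and MBTPS2, and its freed part enters the nucleus. Genes of lipogenic enzymes are among the known targets of SREBF1. An array of RNA reads none of these protein steps.

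All 10 genes had at least 1 probe detected in both arrays, where detected means a detection p of at most 0.01 against the negative controls of the array. Of the 19 probes, 15 passed this limit in both arrays, 1 only in the wild-type one and 3 in neither. Median intensities were 139 and 140 in the wild-type and adapted array, with 37.8% and 35.3% of probes detected. These medians lie below the dimmest detected probes, at 152 and 158, so they compare background rather than signal. All 5 Ewing sarcoma markers looked up were detected in both arrays. Their log2 differences, adapted minus wild-type, went both ways: LIPI (1.82), FLI1 (0.81), STEAP1 (0.35), NKX2-2 (-0.09) and CD99 (-0.55). The defining adipocyte genes ADIPOQ, PLIN1 and FABP4 were detected in neither, although LEP and CFD of the same list were, and of 6 hepatocyte genes only ALB was detected, at intensities of 185 and 187. Of 5 endothelial markers 0 were detected, of 5 epithelial markers only EPCAM was, and of 5 leukocyte markers CD14 (-0.21) and LCP1 (-2.49) were. The fibroblast list was detected in full, 6 of 6 genes, and went both ways, with DCN (1.97) and LUM (0.78) higher and PDGFRB (-1.16) and COL1A1 (-0.74) lower in the adapted array; summed intensities were 2518 and 3307. The part of these markers in the lipid gene values was not tested. In bulk RNA, fewer cells that express a gene and less RNA per cell cannot be told apart.

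SCD and SREBF1 read far higher in the adapted culture, at 3.15-fold and 2.73-fold. FASN read 1.65-fold higher, with ACLY, ACACA and FADS1 higher by less than 1.5-fold. ACSS2, ELOVL5, ELOVL6 and FADS2 read slightly lower. Differences are given as normalised log2 intensity in the adapted array minus that in the wild-type array. By this measure 3 of the 10 genes were at least 1.5-fold higher, against 12.2% of the 9840 genes that were detected in both, and 0 were at least 1.5-fold lower, against 11.9% of all genes. At 2-fold the count was 2 higher and 0 lower, against 2.82% and 4.14% of all genes. The median of the 10 was 0.33, beside 0.04 over all genes. Since the genes were chosen with these values known, the comparison with all genes is given for scale alone. A yardstick for measurement error is the scatter between 2 probes of one gene, which had an SD of 0.28 per probe over 2326 genes. The 2 probes had differences of the same sign in 75.1% of these genes. That scatter can also hold differences between the transcripts that the probes read, and it holds nothing of the variation between cultures.

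**Figure D1:**
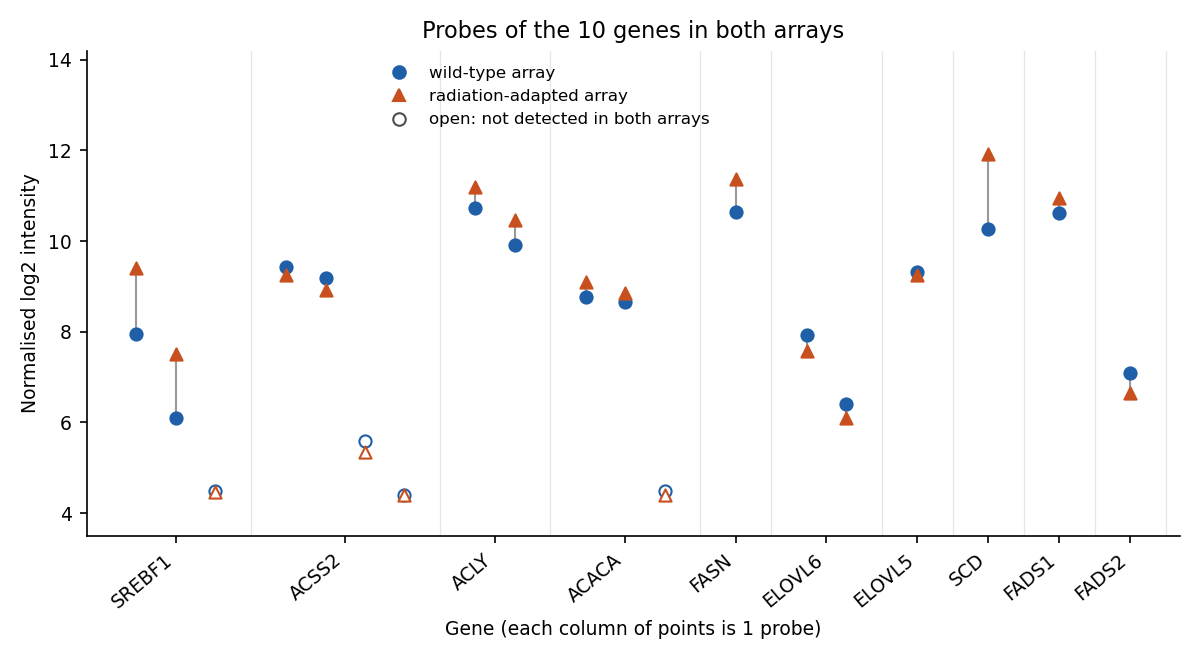
Normalised log2 intensity (vertical axis) of every probe of the 10 genes (horizontal axis), with the wild-type array as circles and the radiation-adapted array as triangles; open symbols mark probes not detected in both arrays. The long lines are those of SCD and of both detected SREBF1 probes, and heights may be compared within a probe only, since probes differ in brightness.

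SREBF1, on chromosome 17, was read by 3 probes. The brightest went from an intensity of 346 in wild-type to 843 in adapted cells, or 7.95 and 9.40 as normalised log2 values. Its difference was 1.45, or 2.73-fold, at rank 77 of 9840 genes from the highest. The second probe had intensities of 180 and 306 and a difference of 1.42, and the remaining one was detected in neither array. Both probes that gave a signal were thus higher in the adapted array, by nearly the same amount. The difference of the dimmer probe depended on background correction, since it was 0.71 without it, against 1.13 for the brighter one. The 250 bases before the annotated start of the gene are printed because SREBF1 is the regulator of the pathway. Capitals mark every match, on either strand, to the CCAAT box (CCAAT), the GC box (GGGCGG, the Sp1 motif), the E-box (CACGTG) or the classical sterol regulatory element (TCACNCCAC). The window is chr17:17836987-17837236, minus strand, GRCh38.p14, sequence from RefSeq:
SREBF1: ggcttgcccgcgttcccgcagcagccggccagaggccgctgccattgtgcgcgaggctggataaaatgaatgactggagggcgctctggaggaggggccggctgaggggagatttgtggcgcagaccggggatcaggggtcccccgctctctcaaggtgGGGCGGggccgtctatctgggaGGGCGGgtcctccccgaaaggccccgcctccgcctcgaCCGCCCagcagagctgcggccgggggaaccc
The capitals in SREBF1 are 3 GC boxes and nothing else. This was the only SREBF1 window, and any other start of the gene was not searched.

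SCD, the desaturase that makes oleate from stearate, stood furthest from its wild-type level among the 10. Its single probe, from a gene on chromosome 10, had intensities of 1238 (wild-type) and 4356 (adapted). The normalised log2 values were 10.27 and 11.93, a difference of 1.66 or 3.15-fold, at rank 42 of 9840. Among the 2460 brightest genes, where SCD lies, 8.13% were at least 1.5-fold higher. SCD has no other probe here to set beside this one. Its upstream window is printed as that of the gene with the largest difference of the 10, and lies at chr10:100346983-100347232, plus strand, GRCh38.p14, from RefSeq, with the same motifs in capitals:
SCD: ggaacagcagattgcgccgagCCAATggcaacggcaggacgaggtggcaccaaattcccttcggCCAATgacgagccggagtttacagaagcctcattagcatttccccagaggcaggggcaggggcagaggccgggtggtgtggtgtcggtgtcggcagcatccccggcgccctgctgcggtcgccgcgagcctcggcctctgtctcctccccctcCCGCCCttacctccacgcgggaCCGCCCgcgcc
ELOVL5: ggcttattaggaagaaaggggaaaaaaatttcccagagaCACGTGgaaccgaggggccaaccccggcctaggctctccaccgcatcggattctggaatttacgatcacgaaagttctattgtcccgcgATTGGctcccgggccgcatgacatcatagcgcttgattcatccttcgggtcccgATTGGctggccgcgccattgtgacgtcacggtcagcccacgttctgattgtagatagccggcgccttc
The ELOVL5 window (chr6:53348951-53349200, minus strand, GRCh38.p14) stands beside it as that of a gene whose level hardly differed between the arrays. SCD holds 2 CCAAT boxes and 2 GC boxes, and ELOVL5 holds 2 CCAAT boxes on the opposite strand and 1 E-box. Windows were found for 9 of the 10 genes, 14 in all, and FASN was not among them. A CCAAT box was in 7 of the 14, a GC box in 11, an E-box in 1 and the sterol regulatory element in 0. Over all 35116 promoter windows of this length, the shares were 32.0%, 42.6%, 6.34% and 0.883%. These are matches to letters within 250 bases of a start, and sites further away or of other spelling were not searched. The 14 windows are not separate, since some genes have more than 1, and those of ACLY overlap, as do those of FADS2. CCAAT and GC boxes shared by the ACLY windows were counted in both, so the counts are no measure of enrichment.

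The enzymes from acetyl-CoA to palmitate read higher in the adapted array, except ACSS2. ACLY, which cleaves citrate, had intensities of 1649 and 2680 with its brightest probe and a difference of 0.47, and 994 and 1674 with its other probe and a difference of 0.56. Both were under 1.5-fold and larger than the scatter between probes. ACACA, the acetyl-CoA carboxylase of the cytosol, read 516 and 706 with its brightest probe, a difference of 0.34. Its second probe read 484 and 615, a difference of 0.22, which is within the scatter between probes. The remaining ACACA probe was not detected. FASN, the multifunctional fatty acid synthase, read 1559 in the wild-type and 3006 in the adapted array. Its difference of 0.73, or 1.65-fold, came from 1 probe and, with SCD and SREBF1, was one of those past 1.5-fold. ACSS2, which makes acetyl-CoA from acetate, was almost level, with intensities of 744 and 766 for its brightest probe and 648 and 635 for its second. After normalisation the differences were -0.18 and -0.25, within the scatter between probes. Of the other ACSS2 probes, one passed the detection limit only in wild-type cells and one nowhere.

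**Figure D2:**
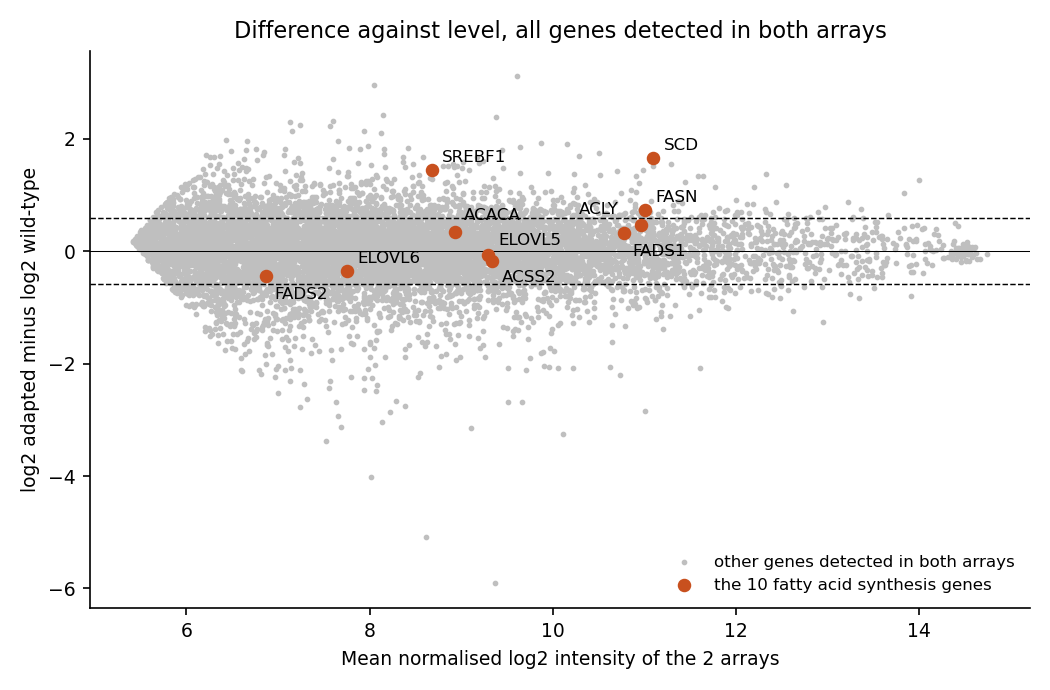
Difference, as log2 adapted minus log2 wild-type (vertical axis), against the mean normalised log2 intensity of the 2 arrays (horizontal axis) for 9840 genes detected in both arrays in grey, with the 10 genes in colour; dashed lines mark 1.5-fold. SCD (1.66) lies at the upper edge of the cloud at its level, SREBF1 (1.45) near it, and ELOVL5 (-0.07) and ACSS2 (-0.18) inside it.

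Neither elongase followed FASN and SCD. ELOVL6, which lengthens palmitate to stearate, the substrate of SCD, had intensities of 343 in the wild-type and 315 in the adapted array. Its difference was -0.35 with that probe and -0.31 with the second, which read 196 and 183. Both probes were therefore lower by a like amount, under 1.5-fold. ELOVL5, which lengthens polyunsaturated chains, read 702 and 771 with its only probe, or 9.32 and 9.26 after normalisation. Its difference of -0.07 lay well within the scatter between probes.

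FADS1 and FADS2 are neighbours on chromosome 11, and their differences had opposite signs. FADS1, the delta-5 desaturase, read 1534 and 2259, a difference of 0.33 or 1.26-fold higher. FADS2, the delta-6 desaturase, read 243 and 216, a difference of -0.45 or 1.36-fold lower in the adapted array. Each value came from 1 probe. The genes of chromosome 11 were low as a whole, with a median of -0.29 over 585 detected genes, the lowest of 23 chromosomes. FADS1 was above 19 of its 20 nearest detected neighbours, 10 on each side, whose median was -0.25, whereas 13 of the 20 around FADS2 read at or above it. Set against the chromosome median, FADS1 differed by 0.62 and FADS2 by -0.16.

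The neighbours of the other genes were examined in the same way. SREBF1, ACACA, ACLY and FASN all lie on chromosome 17, in separate places, and the median of its 608 detected genes was 0.12. None of the 20 neighbours of SREBF1 reached its difference, with a median of 0.28 and a highest value of 0.88. The same held for SCD, whose neighbours had a median of 0.42 and a highest value of 1.14. One neighbour of FASN read higher than FASN, and their median was 0.05. The neighbours of ACACA had a median of 0.43, and 12 of the 20 read at or above ACACA, so its difference was no larger than that of the genes around it. Around ACLY the median was 0.14, with 4 of 20 at or above it. Of the neighbours of ELOVL6, 17 of 20 read at or above it, with a median of 0.11. For ELOVL5 this held for 10 of 20, with a median of 0.01, and for ACSS2 for 9 of 20, with a median of -0.24. Less the median of their own chromosome, SCD stood at 1.57, SREBF1 at 1.32 and FASN at 0.60, each still at least 1.5-fold. Copy number was not measured here, and its part in these differences was not tested.

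**Figure D3:**
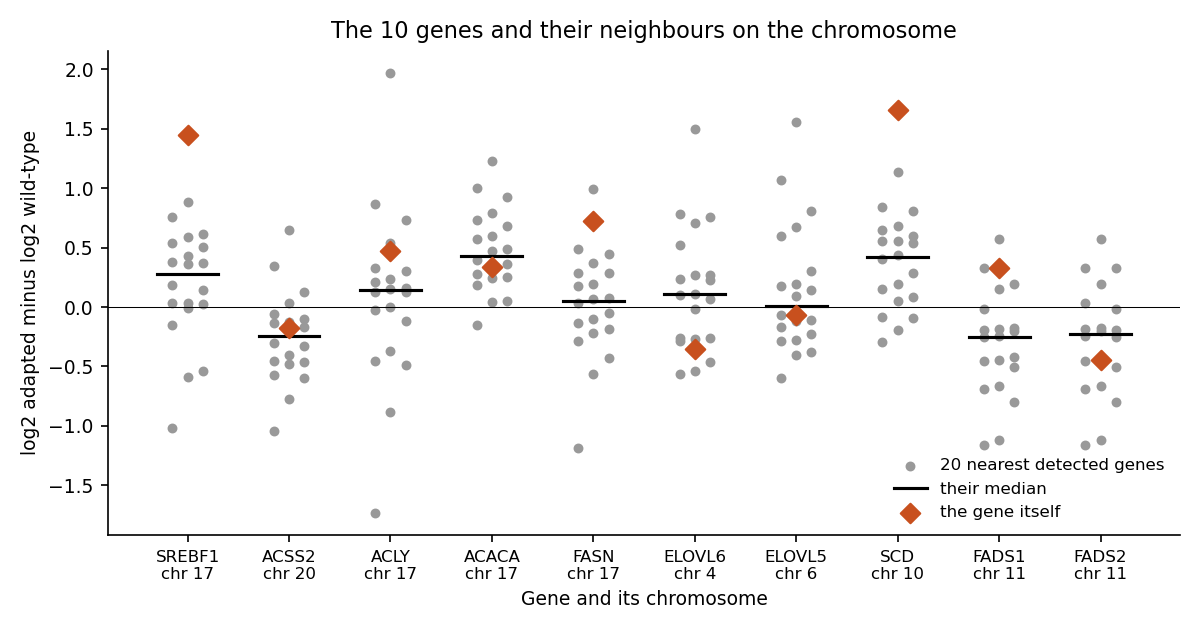
Difference (log2 adapted minus log2 wild-type, vertical axis) of each of the 10 genes (diamonds) with its 20 nearest detected genes on the same chromosome (grey points) and their median (bar). The diamonds of SREBF1 and SCD lie above all their neighbours, that of ACACA near the middle, and the neighbours of FADS1 and FADS2 mostly lie below 0.

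The other genes of lipid metabolism are described by lists, whose counts stand beside the 12.2% of all genes that were at least 1.5-fold higher and the 11.9% that were at least 1.5-fold lower; in lists this short, counts near those shares say nothing particular about a list. The first list holds genes of SREBP maturation together with other regulators of lipogenesis. Of its 13 genes detected in both arrays, 1 was at least 1.5-fold higher and 1 lower, near the shares of all genes. Their median was -0.25, beside 0.04 over all genes. INSIG1, which retains SCAP in the endoplasmic reticulum and is itself an SREBP target, read 287 and 494, a difference of 0.94. MBTPS1, the site-1 protease that makes the first cut in SREBP, went the other way, with intensities of 831 and 470 and a difference of -1.25 from the brighter of 2 probes of one sign. MID1IP1, a protein that helps acetyl-CoA carboxylase polymerise, read 0.56, and PRKAA1, a catalytic subunit of the kinase that inactivates that enzyme, -0.47. SREBF2, the paralog that drives sterol synthesis, was detected in the adapted array alone, at 151 and 175. It was at least 1.53-fold higher, or at least 1.14-fold without background correction, and its detection p in the wild-type array was 0.0104, just past the limit.

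Paralogs of the 10 genes gave values in both directions. SCD5, the second human stearoyl-CoA desaturase, read 253 and 327, a difference of 0.47, and ACACB, the mitochondrial carboxylase, 544 and 815, a difference of 0.48. ACSS1, the mitochondrial acetate enzyme, had a difference of 0.28. Among the elongases, ELOVL4, which makes very long chains, read 301 and 481, a difference of 0.77, or 0.53 and thus under 1.5-fold without background correction. ELOVL1 had a difference of 0.45 and ELOVL2 of -0.26, ELOVL3 was detected only in wild-type cells, with no fold to give, and ELOVL7 was not detected. FADS3 was detected only in wild-type cells, at 197 against 154, and was at least 1.91-fold lower in the adapted array, or at least 1.26-fold without background correction. In the whole list of other elongation and desaturation genes, the median over 10 genes detected in both was 0.13, with 2 at least 1.5-fold higher and 0 lower, against 12.2% and 11.9% of all genes. The second of these was HACD2, the dehydratase of the elongation cycle, at 937 and 1709 and a difference of 0.69.

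Of 9 genes that supply citrate, acetyl-CoA and NADPH, 0 were at least 1.5-fold apart in either direction, against 12.2% of all genes higher and 11.9% lower, and the median was 0.22. The furthest were PGD of the pentose phosphate pathway (-0.54), pyruvate carboxylase, PC (0.47), and the NADP-dependent dehydrogenase IDH1 (0.40). The 6 detected genes of malonyl-CoA turnover and mitochondrial fatty acid synthesis also held 0 at that size, too few genes to set against the same shares, with a median of 0.17. OXSM, the mitochondrial ketoacyl synthase, had a difference of 0.51, CBR4 of 0.37, and MECR, the reductase of the same pathway, of -0.44.

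In acyl-CoA activation and glycerolipid assembly, 1 of 10 genes was higher and 1 lower, about the 12.2% and 11.9% of all genes, with a median of 0.03. GPAM, the mitochondrial enzyme that starts glycerolipid synthesis, read 277 and 397, a difference of 0.62 (0.41 without background correction). AGPAT2, which adds the second acyl chain, read 536 and 366, a difference of -0.95 from the brightest of 3 probes of one sign. DGAT2, which makes triglyceride, was detected in the adapted array alone and was at least 1.75-fold higher, or at least 1.20-fold without background correction. The synthetases ACSL1 and ACSL4 had differences of 0.35 and 0.34. Of 7 genes of uptake and lipid droplets, 0 were higher and 1 was lower, again close to the shares of all genes. The lower one was the droplet coat protein PLIN3 (-0.67), and the fatty acid binding protein FABP5 had a difference of 0.51. The transport proteins SLC27A1 and SLC27A5 had differences of -0.52 and -0.35.

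Of 14 genes of fatty acid oxidation, the opposite pathway, 1 was higher by 1.5-fold or more and 2 were lower, near the 12.2% and 11.9% of all genes, and the median was 0.09. The counts were 1 higher and 4 lower with a detection limit of 0.05 or with no detection filter, where more genes entered. Without background correction they were 0 and 1. CPT1B, the muscle form of the carnitine acyltransferase that admits fatty acids to mitochondria, read 167 and 250, a difference of 1.27 but of 0.55 without background correction. ACADVL, the very-long-chain dehydrogenase, read 4728 and 3476, a difference of -0.69. The carnitine carrier SLC25A20 had a difference of -0.59, or -0.40 without background correction, and HADHB of the trifunctional protein one of 0.56. ACADS, the short-chain dehydrogenase, was detected only in wild-type cells and was at least 1.75-fold lower, or at least 1.22-fold without background correction.

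In sterol synthesis, the branch driven mainly by SREBF2, the median over 15 genes was 0.48, and 4 were higher and 1 lower by 1.5-fold or more, against 12.2% and 11.9% of all genes. These counts became 6 and 0 with median scaling and 7 and 0 in the authors' processed values. The higher ones under the main setting were IDI1 (1.41), MSMO1 (0.95), CYP51A1 (0.85) and HMGCS1 (0.72). Of these, MSMO1 had probes of differing sign and CYP51A1 was at 0.51 without background correction. The lower one, HSD17B7 (-0.61), was named after its value was seen. It was under 1.5-fold with median scaling and in the authors' processed values. MVK, detected in the adapted array alone, was at least 1.88-fold higher, or at least 1.23-fold without background correction. Among these 8 lists and the 10 fatty acid genes, the highest difference of a gene detected in both arrays was that of SCD, followed by SREBF1 and IDI1.

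**Figure D4:**
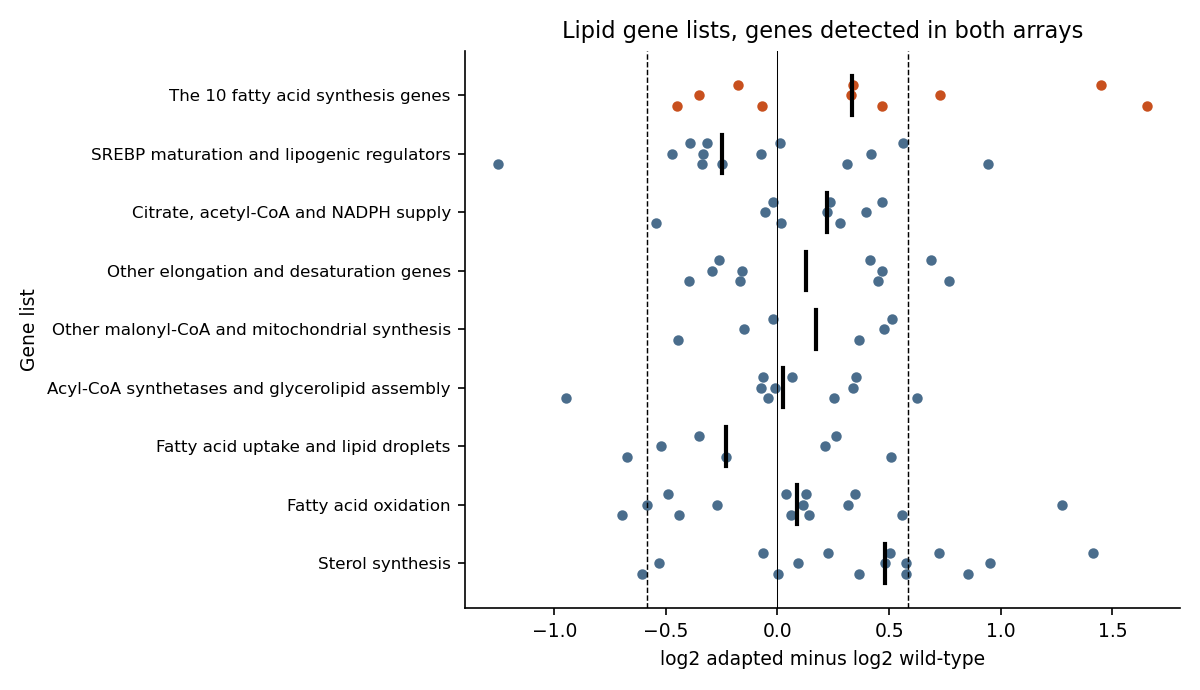
Difference (log2 adapted minus log2 wild-type, horizontal axis) of the genes detected in both arrays, 1 point per gene, for the 10 genes and 8 lists of lipid metabolism (vertical axis), with medians as bars and dashed lines at 1.5-fold. The 10 genes spread from -0.45 to 1.66, and the list medians lie between -0.25 and 0.48.

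The count of 3 genes past 1.5-fold held under every planned processing setting, while some single values moved. Centred on the chromosome median, a setting added later, FADS1 (0.62) passed that size too. SCD lay between 1.57 and 1.74 and FASN between 0.60 and 0.83 over 8 other settings, and SREBF1 between 1.13 and 1.51 over 9. All of these were at least 1.5-fold. Without background correction, where 4.74% of all genes were that much higher and 6.18% lower, the count among the 10 was still 3 and 0. The looser detection limit and the lack of a detection filter left all 10 values unchanged. The mean over probes could not move SCD or FASN, each read by 1 probe. ACLY (0.34 to 0.57) and ACACA (0.21 to 0.38) stayed above 0 and under 1.5-fold in all 9 of theirs. ELOVL6 lay between -0.42 and -0.23. FADS1 lay between 0.31 and 0.62, the latter relative to its chromosome median, where FADS2 read -0.16; FADS2 was at -0.23 without background correction and reached -0.55 in the authors' processed values. Before normalisation the adapted intensities of ELOVL5 and of the brightest ACSS2 probe were slightly above the wild-type ones, at ratios of 1.10 and 1.03. The sign of these 2 small differences therefore comes from the normalisation between the arrays. The second ACSS2 probe was already lower before it, at 648 in the wild-type and 635 in the adapted array.

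**Figure D5:**
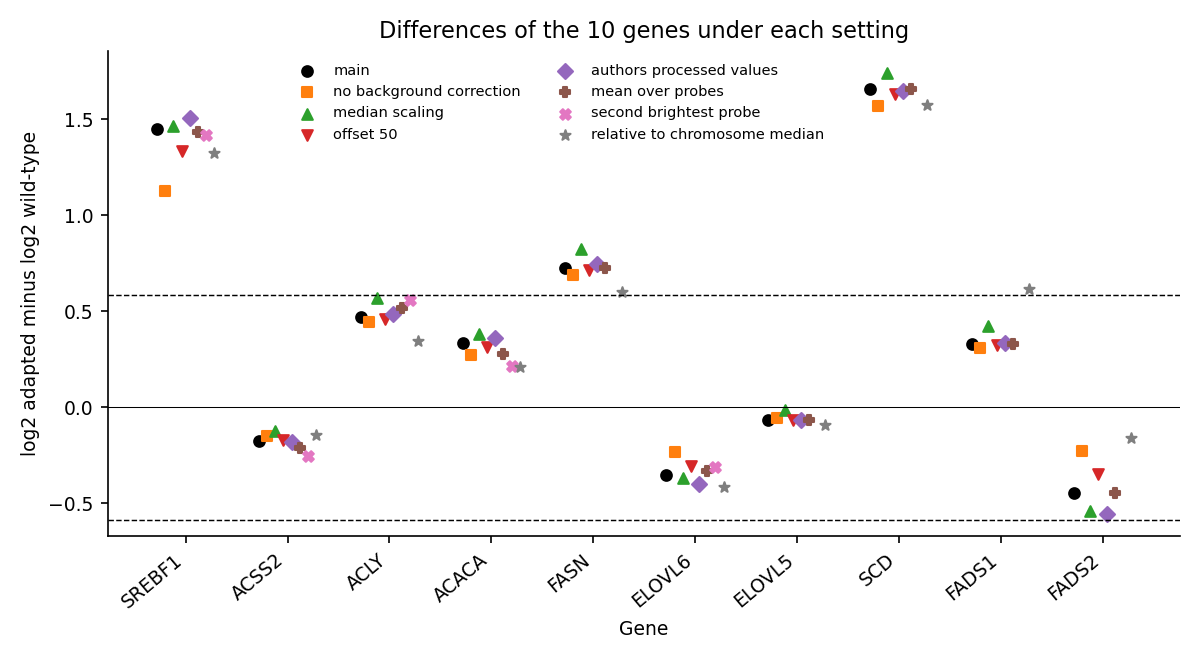
Difference (log2 adapted minus log2 wild-type, vertical axis) of the 10 genes (horizontal axis) under the main and the other settings (symbols), with dashed lines at 1.5-fold. SCD, SREBF1 and FASN lie above the upper line under every setting drawn, and FADS1 does so (0.62) only relative to the median of its chromosome.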

How the data were processed

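Total RNA of 1 wild-type and 1 radiation-adapted A4573 culture was extracted with Trizol and biotin-labelled with the Illumina TotalPrep kit, per the labels. The authors deposited an intensity per probe and array, the average bead signal before normalisation per the file headers. With minima of 100 and 102, it still holds the background. The detection p-value deposited beside it compares a probe with the negative controls. A second table holds the authors' processed intensity values, on a linear scale with a median of 10.6 in each column. As 27.7% of them lie below 0, a background was probably subtracted. Their probe ranks match those of their own array's intensity (Spearman rho 1.00; 0.861 with the other one). Neither the scanner software nor the way they were made is stated in the labels.

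Probes were named from the platform annotation, with symbols updated by gene ID through RefSeq (GRCh38.p14). Of 47323 probes, 30113 had 1 symbol, 8 had several and 17202 were not listed; 30074 were found in RefSeq. Values came from neqc of limma 3.58.1 (R 4.3.3), with an offset of 16, quantile normalisation and log2; the steps were tested on simulated arrays. Genes with any detected probe were kept (11296), each represented by its brightest probe, taken among probes detected in both arrays where there were any. Detection held for 9840 genes in both arrays, for 985 only in wild-type cells, for 454 only in adapted cells, and for 17 through separate probes. For a gene detected in 1 array the fold is a bound, with the dim value raised, where lower, to that of the dimmest detected probe of its array. Quantile normalisation removes any difference in total signal, and the offset shrinks differences of dim probes. There is no test with 1 array per group, and the number of arrays limits the precision.

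The genes and lists were chosen with earlier results of these data known. Named genes were the 10 genes, their paralogs, up to 4 genes per list with the largest differences, and bounds of at least 1.5-fold. Some genes of the lists were not analysed here. Tables were handled with pandas 2.3.3 on Python 3.11.15 and figures with matplotlib 3.10.9.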

Additional observations from a re-analysis of the deposited data

How the results depend on the processing

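The settings tried were no background correction, median scaling, an offset of 50, the authors' processed values (floor of 16), a detection limit of 0.05, no detection filter and the mean over probes; the second brightest probe and centring on the chromosome median were added after the data were seen. The count of the 10 genes at least 1.5-fold apart was 3 higher and 0 lower under all 7 planned settings, and their median lay between 0.29 and 0.40. Of these settings, the looser detection limit and the lack of a filter left the values of the 10 genes unchanged. Over all genes, 1196 passed 1.5-fold upwards and 1168 downwards; without background correction these were 466 and 608, and without a detection filter 1881 were lower, as 20046 genes then entered. Of 253 values of single genes and lists under other settings, 211 stayed close and 42 moved. Close meant within the probe scatter for a gene, within 1.5 times or 0.1 for a list median, and within 1.5 times for a count. A change of sign was scored only for values of at least 1.5-fold, those of SREBF1, SCD and FASN, and 0 of these changed sign. All list medians were under that size, and some of them did change sign. The sterol list median fell to 0.28 without background correction, and that of the other elongation and desaturation genes was -0.10 with a detection limit of 0.05 or with no filter; the median for uptake and lipid droplets was then -0.01 and -0.06. With no filter the malonyl-CoA and mitochondrial synthesis median turned from 0.17 to -0.03 and that of the regulators was -0.08 (-0.14 without background correction), and with a limit of 0.05 that of glycerolipid assembly was 0.16. The bounds of SREBF2, FADS3, DGAT2, ACADS and MVK were measured differences once the detection limit was 0.05. No paired analysis was possible because each group holds 1 array.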

Other observations

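Small RNA genes that lie within or beside the lipid genes had probes on the array. MIR33B, in an intron of SREBF1, read 149 in the wild-type array (detection p 0.0195) and 123 in the adapted array (detection p 0.727), so it was detected in neither. MIR33A, in SREBF2, read 126 and 124, and at the FADS1 locus MIR1908 read 135 and 140 and MIR611 read 151 and 124; none of these passed the detection limit in either array. Whether the probes detect the mature RNA or a precursor is not stated in the labels or the annotation.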
